A study of Mus musculus with 26 samples.

Results

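DNA methylation was followed at 10 imprinted genes, Snrpn, Mest, Peg10, Sgce, Kcnq1ot1, Igf2r, Airn, Plagl1, Grb10 and Gnas, in mouse sperm. Each of these genes, or its overlapping or neighbouring partner, has a promoter that is methylated in the oocyte and not in sperm. The genes were taken as a fixed list of symbols, and a position belonged to a gene when it lay inside the RefSeq span on GRCm38 or within 2000 bp of it and carried at least 10 reads in a library. In all, 1717 positions of 2626470 in the series, and 10 of 38951 genes with positions, met this rule. A position is a cytosine of a CpG on a single strand, and its methylation level is the percentage of reads there that kept the cytosine after bisulfite treatment.

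Reduced representation bisulfite sequencing (RRBS), which reads CpG-rich fragments released by a restriction enzyme, was done on sperm of 26 male mice in 6 groups. SSCT stands for the transplantation of spermatogonial stem cells: the 3 SSCT F0 males were sterile W/W-v mice that had received cultured DBA/2J stem cells, and the 3 control F0 males were DBA/2J mice, both sampled at 16 to 18 months of age. The offspring, sampled at 3 months, were 5 males of each of 4 sets: control F1 and SSCT F1, and the SSCT F2 sets called F2/M and F2/P. F2/M mice had an SSCT F1 mother and F2/P mice an SSCT F1 father, each mated with a control partner. The sperm of an SSCT F0 male came from transplanted donor cells in a host of another strain, so that transplantation, host and culture cannot be told apart in this group.

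The names of the 4 offspring sets were taken from the sample titles. The heat map of the study gives the same libraries other names, under which the set titled SSCT F2/M is the control F1 set and the set titled SSCT F2/P is the SSCT F1 set. All 6 pairs of the 4 sets were therefore compared, so that every comparison of a set with the control set is included under either naming. Each CpG count that the study prints for the offspring lies close to a comparison here with the set titled SSCT F2/M as control. For SSCT F1 and pooled SSCT F2 these were 714746 and 504820, against 597327 and 569824 under the titles. For F2/M and F2/P they were 609376 and 664292, with the sets titled SSCT F1 and control F1 against that set. Under the titles F2/M and F2/P gave 664292 and 695138. The titles are kept below. Under the heat map's names the comparisons with control are the pairs that include the set titled SSCT F2/M. The offspring and control F0 libraries had at least 10 reads at 1465300 to 1790008 positions. The 3 SSCT F0 libraries, made from less DNA, had 1527632, 965381 and 175649, and the third of them had a median of 392 reads at these positions, against 26 and 41 in the first and second. Of the 1717 positions of the imprinted genes, 45 were covered in all 6 F0 libraries. Of those, 35 belonged to Gnas, 6 to Grb10, 2 to Mest and 2 to the stretch that Igf2r and Airn share. Results in F0 sperm are therefore given with and without SSCT F0 replicate 3.

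In mammals, a small set of genes is expressed from a single parental copy. At most of these loci a promoter or a control region gains DNA methylation in the oocyte and stays free of it in sperm, and the difference is kept in the tissues of the offspring. Sperm of an adult male should therefore read near 0 at such a region, whichever parent that copy came from, because marks are erased and set anew in each germ line. The bodies of active genes, by contrast, are methylated in sperm as in most cells.

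The stretches just upstream of annotated starts show where the reads fell. They are taken from RefSeq on GRCm38.p6, 250 bases each, 5′ to 3′ on the strand of the gene, and capitals mark the CpGs that carried at least 10 reads in a library. These 6 windows are shown because they hold most of the measured promoter CpGs of the 10 genes and the only one of them classed as methylated.
Plagl1, start chr10:13090832, plus strand: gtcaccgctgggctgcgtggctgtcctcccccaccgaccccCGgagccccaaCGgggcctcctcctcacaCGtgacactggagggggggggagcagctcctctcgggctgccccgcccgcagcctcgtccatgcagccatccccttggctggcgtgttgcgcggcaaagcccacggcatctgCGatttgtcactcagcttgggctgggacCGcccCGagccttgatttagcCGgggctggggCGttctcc
Grb10, start chr11:12037420, minus strand: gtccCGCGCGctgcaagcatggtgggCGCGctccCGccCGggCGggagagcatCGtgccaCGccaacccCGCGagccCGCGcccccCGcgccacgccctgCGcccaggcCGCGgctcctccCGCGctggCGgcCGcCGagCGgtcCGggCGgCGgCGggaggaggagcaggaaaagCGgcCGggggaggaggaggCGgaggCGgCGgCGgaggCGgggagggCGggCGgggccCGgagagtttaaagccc
Grb10, start chr11:12027971, minus strand: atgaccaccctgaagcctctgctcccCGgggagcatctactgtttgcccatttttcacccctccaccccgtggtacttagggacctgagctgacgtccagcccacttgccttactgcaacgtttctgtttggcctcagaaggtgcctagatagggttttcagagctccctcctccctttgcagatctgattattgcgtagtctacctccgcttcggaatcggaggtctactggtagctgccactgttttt
Igf2r, start chr17:12769706, minus strand: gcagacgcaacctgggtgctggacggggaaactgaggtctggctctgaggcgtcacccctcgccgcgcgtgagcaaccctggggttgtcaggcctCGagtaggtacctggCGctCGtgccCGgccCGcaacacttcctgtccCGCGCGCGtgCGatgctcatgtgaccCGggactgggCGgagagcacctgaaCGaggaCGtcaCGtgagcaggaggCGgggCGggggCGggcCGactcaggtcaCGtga
Gnas, start chr2:174284320, plus strand: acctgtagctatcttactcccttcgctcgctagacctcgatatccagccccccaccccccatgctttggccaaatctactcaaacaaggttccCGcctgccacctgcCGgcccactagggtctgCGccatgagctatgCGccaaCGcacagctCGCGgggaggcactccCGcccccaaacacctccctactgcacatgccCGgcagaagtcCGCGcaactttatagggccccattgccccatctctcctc
Gnas, start chr2:174330006, plus strand: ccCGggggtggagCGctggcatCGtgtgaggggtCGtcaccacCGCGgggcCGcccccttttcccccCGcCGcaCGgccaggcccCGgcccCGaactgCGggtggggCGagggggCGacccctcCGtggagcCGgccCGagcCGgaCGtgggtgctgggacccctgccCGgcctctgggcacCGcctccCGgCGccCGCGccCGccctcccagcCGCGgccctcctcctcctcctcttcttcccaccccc
In all, 17 such windows of 8 of the genes were found, and 9 of them held a measured CpG. The letters CCGG, which read the same on both strands and are the site that the RRBS enzyme cuts, were in 7 of the 17 windows and in 47.1% of the 32851 windows of the same length in the RefSeq table. The Plagl1 window held 9 measured positions, all near 0, with a mean level of 1.78% over the 20 offspring. Upstream of the distal Grb10 start, 54 of 59 measured positions were near 0 with a mean of 1.18%, and the others were not measured in enough mice to be classed. The single CpG measured upstream of the inner Grb10 start read 92.3%. In the Igf2r window 26 of 29 positions were near 0 (1.46%). At Gnas, the first and the last of the annotated starts read 0.628% over 9 near-0 positions and 1.93% over 32.

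Each position was classed by its mean level over the 20 offspring, near 0 at 10% or less and methylated at 80% or more, where at least 10 mice had 10 reads there. Of the 1717 positions, 1063 were near 0, 128 were methylated, 44 lay between and 482 were measured in too few mice. Near-0 positions thus made up 86.1% of the 1235 that were classed, against 59.9% over the whole series. This share was highest at Grb10 (92.4%), Gnas (92.2%), Plagl1 (91.8%), Mest (83.9%) and Airn (81.7%), and it was lower at Igf2r (76.8%), Kcnq1ot1 (67.6%), Snrpn (64%), Sgce (54.5%) and Peg10 (50%). Gnas and Grb10 held 542 and 280 of the 1063 near-0 positions. A high share is not particular to these genes, as the counts at Zrsr1, Dlk1 and Zdbf2 below show. Other imprinted genes listed there had more methylated than near-0 positions. Of the 44 intermediate positions, 25 had a mean under 20%. The highest near-0 position read 9.75%, the lowest intermediate position 10.0% and the lowest methylated position 83.5%. Positions are counted for both strands, and of 281 CpGs classed on both strands 266 had the same class. Peg10 and Sgce share 24 positions, and Igf2r and Airn share 136, so the values of these genes are not independent.

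**Figure D1:**
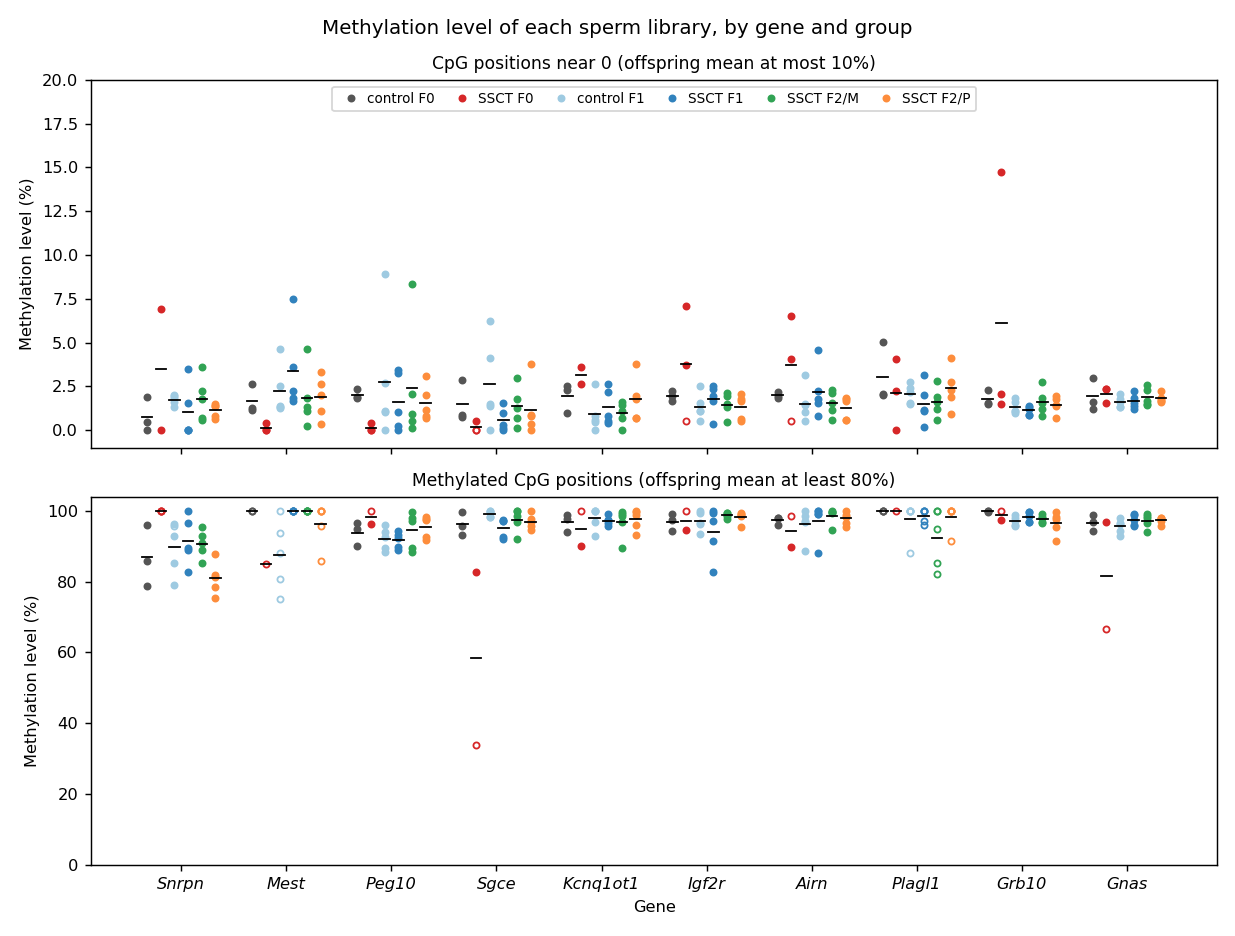
Mean methylation level in percent of reads, by gene and group, at near-0 positions and at methylated positions. Each point is 1 mouse, open circles rest on fewer than 5 positions, and black ticks are group means; over all 20 offspring the near-0 means of the 10 genes lie between 1.25% and 2.33% and the methylated means between 88.3% and 97.5%.

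The near-0 positions lay in runs, several of them at or next to annotated starts. At Snrpn, which encodes a spliceosomal protein and carries the imprinting centre of its domain, 15 near-0 positions filled chr7:60004580-60005093, inside the gene and 106 bp from the start at 60005199, with a mean of 1.15% over the offspring. The nearest methylated CpG upstream lay 7431 bp from the run and read 91.7%. At Mest, a paternally expressed gene for a protein of the hydrolase family, 26 near-0 positions fell into 3 runs. The last of these, chr6:30738387-30739334, held 13 positions, lay 334 bp from an inner start and read 1.50%, and the first methylated CpG came 3270 bp downstream.

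Kcnq1ot1 is a long non-coding RNA that silences neighbouring genes on the paternal chromosome. All of its 23 near-0 positions lay in 244 bp, chr7:143295375-143295618, 929 bp inside the gene, where the offspring read 1.24%. Airn is a non-coding RNA that silences Igf2r, the receptor that clears the growth factor Igf2. Near the start of Airn, 24 near-0 positions at chr17:12741590-12742421 read 1.06%, and this run lies within the body of Igf2r. A separate run of 50 positions, chr17:12769205-12769836, spanned the start of Igf2r itself and read 1.25%. Both runs were flanked by methylated CpGs, 15175 bp and 9518 bp away on the sides of the first and 6192 bp and 6300 bp away on the sides of the second, where those at 9518, 6192 and 6300 bp read 92.1%, 97.6% and 98.9%. Another run, 9 positions at chr17:12854539-12854888 in Airn, read 3.02% and lay far from any annotated start of these genes. By background knowledge the first, not the second, is the region that the oocyte methylates, so that a level near 0 in sperm does not single out the control region.

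Plagl1 encodes a zinc-finger transcription factor, and 63 of its 67 near-0 positions lay at chr10:13090623-13091189, across the start, with a mean of 1.90%. Grb10 encodes an adaptor protein that restrains insulin signalling, and its near-0 positions fell into 2 long runs. The first, chr11:12025609-12026881, held 147 positions with a mean of 1.40% and lay 1090 bp from the inner start, on the side of the gene body. The second, chr11:12036661-12038757, held 132 positions with a mean of 1.33% and spanned the distal start. Methylated CpGs stood between the runs, among them the one at 92.3% in the window upstream of the inner start.

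Gnas encodes the stimulatory G-protein subunit, and its locus makes several transcripts from separate starts with opposite imprints. Near-0 positions filled 3 runs there. The first, chr2:174284177-174287816, held 103 positions (1.59%) and spanned the first annotated start. The second, chr2:174295489-174300607, held 173 positions (2.25%) and began 11169 bp downstream of that start. The third, chr2:174326931-174330956, held 266 positions (1.42%) and covered the remaining annotated starts. Methylated CpGs stood between the runs, 3352 bp to the right of the first with 94.4% and 4854 bp to the left of the third with 98.6%. All 3 runs read near 0, including the first, which by background knowledge is unmethylated in the oocyte and not a maternally methylated region. Counted without any position of another class between them, the longest runs held 134 near-0 positions at Gnas, 132 at Grb10, 50 at Igf2r and Airn, 44 at Plagl1, 26 at Mest, 23 at Kcnq1ot1, 15 at Snrpn and 13 at Peg10 and Sgce.

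**Figure D2:**
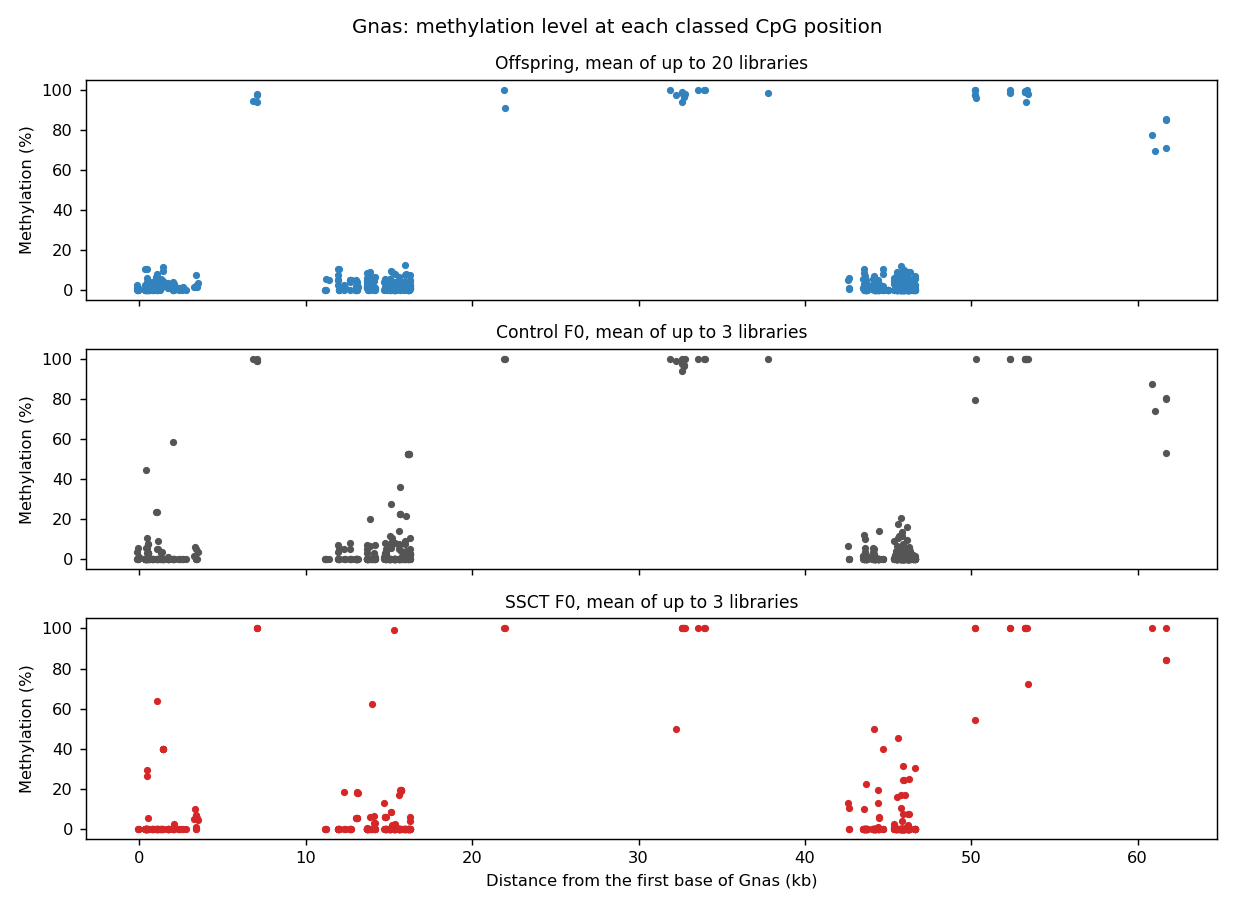
Methylation level in percent at each classed position of Gnas against the distance in kb from the first base of the gene, as the mean of the offspring, of the control F0 and of the SSCT F0 libraries in 3 panels. Points are positions; the 3 runs near 0 hold 103, 173 and 266 near-0 positions in the offspring, and in the F0 panels, which rest on up to 3 libraries, single positions scatter higher.

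Peg10, which derives from a retrotransposon and is needed for the placenta, and Sgce, which encodes a sarcoglycan, start next to each other on opposite strands. The run at their shared start, chr6:4747355-4747525, held 18 near-0 positions and read 1.45%, and it counts for both genes. Farther into Peg10 the level passed from near 0 to methylated over a short distance. Of its positions, 6 at chr6:4755338-4755407 read 4.28% on average, 10 intermediate positions at chr6:4755754-4755965 read from 26.3% to 79.9%, and the position at 4755970, 8664 bp from the first base, read 96.4%. Beyond it the classed positions were methylated except those at 4756163 and 4756210, which read 47.3% and 39.2%. The other strands of these CpGs, at 4756162 and 4756211, read 89.7% and 92.9%.

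**Figure D3:**
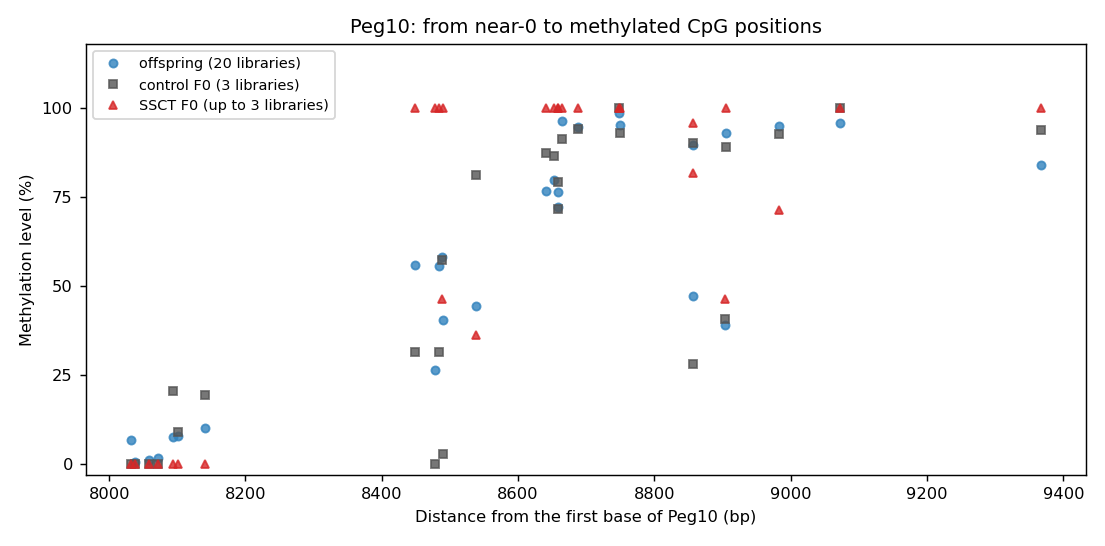
Methylation level in percent at positions of Peg10 against the distance in bp from its first base, as the mean of the 20 offspring (circles), the control F0 (squares) and the SSCT F0 libraries (triangles). In the offspring the level is near 0 up to 8101 bp and reads 96.4% at 8664 bp, with intermediate positions between.

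The intermediate stretch of Peg10 spread widely between the mice of a set. Near-0 levels, held at 10% or less by the classing, have little room to spread and are not compared with it. In the 5 control F1 mice it read 54.9%, 46.5%, 69.0%, 44.2% and 60.2%, a mean of 55.0% ± 10.1 (SD). The SSCT F1 mice read 84.3%, 67.6%, 56.1%, 64.1% and 81.4%, a mean of 70.7% ± 11.9. For SSCT F2/M the 5 values were 55.8%, 77.0%, 51.1%, 91.8% and 66.7%, and for SSCT F2/P they were 52.0%, 50.5%, 84.5%, 60.4% and 42.6%. All 4 sets overlapped. The control F0 males read 66.5%, 80.9% and 57.2%, SSCT F0 replicate 1 read 96.5%, and replicate 2 read 0 at the 2 positions it covered. Not all mice covered all 10 positions, the fewest in the offspring being 6. The 5 control F1 mice covered all 10, and the SSCT F1 mice covered 10, 8, 6, 10 and 6. The means of single positions ran from 26.3% to 79.9%, so the set means rest on partly different positions.

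**Figure D4:**
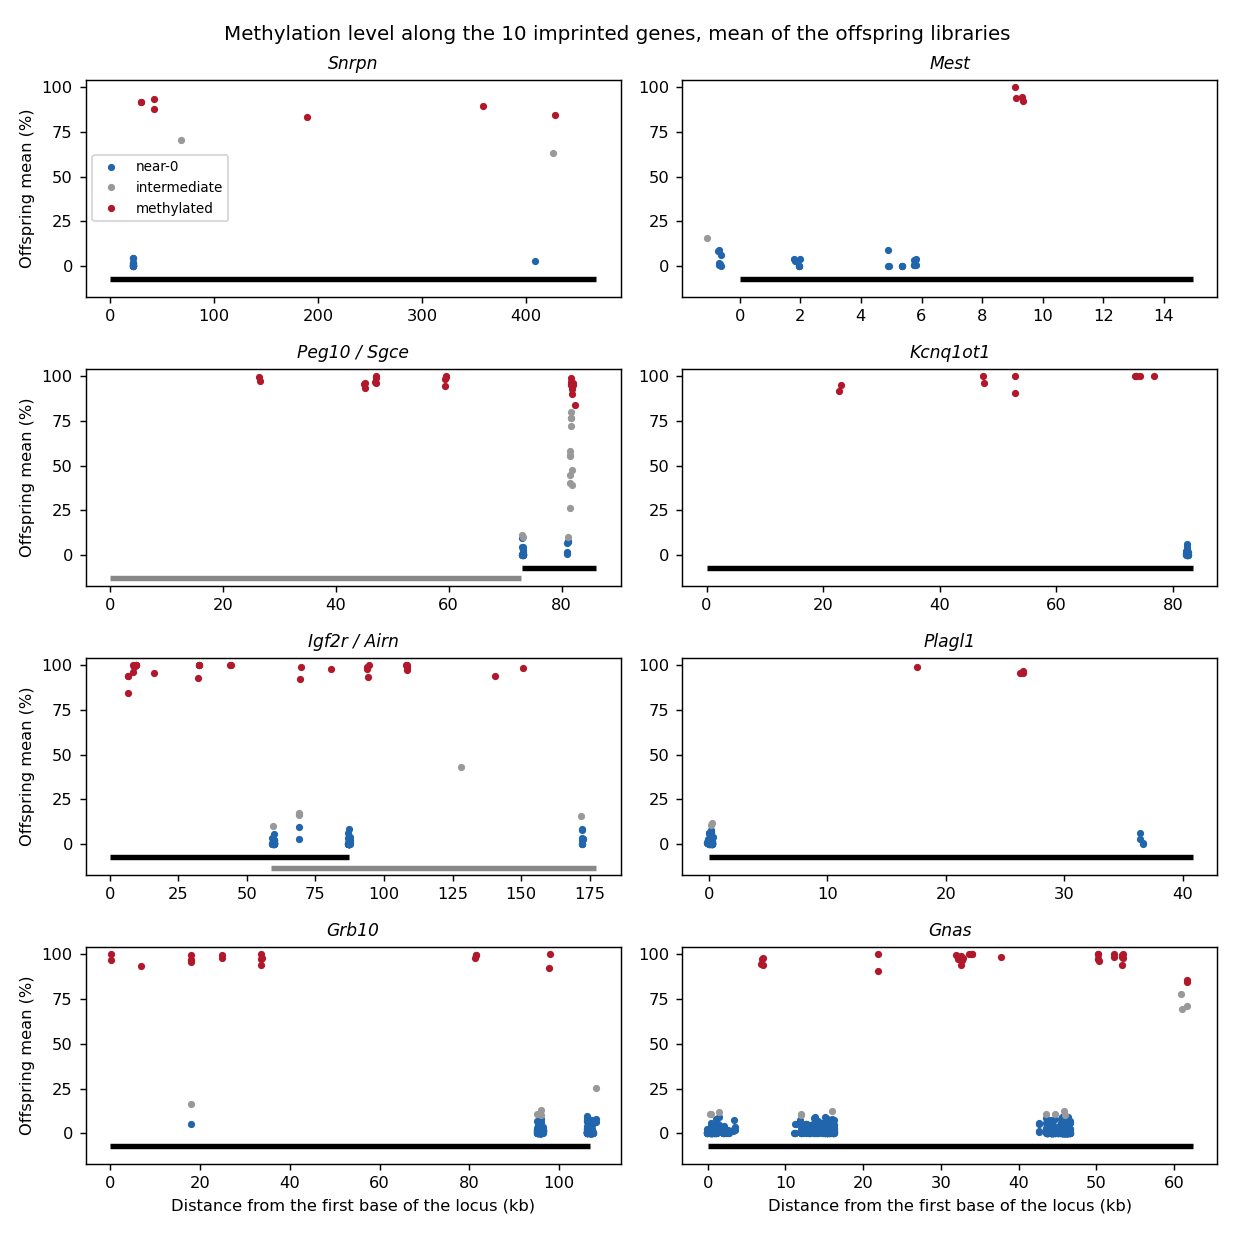
Methylation level in percent over the 20 offspring at each classed position of the 10 genes, drawn as 8 loci, against the distance in kb from the first base of the locus. Points are positions coloured by class, and black and gray bars mark the spans of the genes; the near-0 positions stand in dense runs while the methylated ones are scattered over the genes.

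That the near-0 positions were low in the 20 offspring follows from how they were classed, so their level is given as a description. Over all 1063 near-0 positions the mice had a mean of 1.66% ± 0.245 (SD, n = 20), between 1.19% and 2.33%. Of 579328 reads summed over positions, where a read counts at each CpG it spans, 9900 kept the cytosine, which is 1.71%. At single positions 89.5% of the 18130 values were exactly 0 and 323, or 1.78%, lay above 25%. For comparison, near-0 positions of the whole series averaged 1.63% to 1.73% per library with 1.56% to 2.21% of values above 25%, and added unmethylated control DNA read 0.542% to 1.22%. The values above 25% were scattered: 807 of the 1063 positions had none in any offspring mouse, 200 had 1 such mouse, 47 had 2 and 9 had 3 or more, at most 4.

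By gene, the offspring mean at near-0 positions was 1.25% ± 0.993 at Kcnq1ot1, 1.38% ± 0.496 at Grb10, 1.42% ± 0.997 at Snrpn, 1.45% ± 1.65 at Sgce, 1.48% ± 0.703 at Igf2r, 1.63% ± 0.975 at Airn, 1.75% ± 0.376 at Gnas, 1.90% ± 0.938 at Plagl1, 2.07% ± 2.49 at Peg10 and 2.33% ± 1.72 at Mest (each SD, n = 20). Neighbours in this order lay within the spread between mice. The spread was narrowest at the genes with most positions, Gnas and Grb10, and widest at Peg10 and Mest, where a mouse at the top reached 8.91% and 7.49%. The methylated positions of the same genes read 96.3% ± 1.13 over the 20 mice, from 88.3% ± 6.92 at Snrpn to 97.5% ± 3.52 at Airn. At Snrpn, with 7 methylated positions, the SSCT F2/P mice were the lowest set at 75.5% to 87.9%, and the control F1 mice, at 79.2% to 96.4%, overlapped them; too few of these positions were covered in every mouse for a test.

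The 4 sets of offspring overlapped in level. Over all near-0 positions the control F1 mice had a mean of 1.60% ± 0.265, against 1.55% ± 0.254 for SSCT F1, 1.76% ± 0.323 for SSCT F2/M and 1.71% ± 0.109 for SSCT F2/P (SD, n = 5 each). At Snrpn the 4 sets, in the same order, read 1.75% ± 0.271, 1.01% ± 1.54, 1.79% ± 1.23 and 1.15% ± 0.383. In the run at the Snrpn start the control F1 mice read 2.03%, 1.43%, 2.10%, 1.59% and 1.72%, and the SSCT F1 mice read 0, 0, 0, 0 and 1.69%, which overlaps the control F1 range. The 4 mice at 0 had 343, 194, 531 and 406 read counts there, summed over 9, 5, 15 and 15 positions. Were these counts independent, 0 methylated would allow a level of up to 0.875%, 1.55%, 0.565% and 0.739%. A read that spans several CpGs is counted at each, and reads of a PCR-amplified library are not independent molecules. These limits are therefore too low. The SSCT F2/P mice read 1.58%, 1.47%, 0.878%, 0.357% and 0, and the SSCT F2/M mice read 1.92%, 3.99%, 0.787%, 0.630% and 2.41%.

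At Kcnq1ot1 the mice of the 4 sets spanned 0 to 2.66%, 0.435% to 2.64%, 0 to 1.60% and 0.706% to 3.78%, and every pair of these ranges overlapped. The run at the inner Grb10 start, which the oocyte methylates, read 1.19% ± 0.572, 1.24% ± 0.406, 1.80% ± 1.23 and 1.36% ± 0.631. The SSCT F2/M mice there were 1.72%, 1.22%, 3.87%, 0.628% and 1.55%, so that a single mouse set the wider spread. At the run of Plagl1 the values were 1.99% ± 0.586, 1.50% ± 1.03, 1.53% ± 0.997 and 2.50% ± 1.21. The first run of Gnas read 2.03% ± 1.02, 1.78% ± 0.890, 1.68% ± 0.714 and 1.09% ± 0.598, and the second 1.99% ± 0.635, 2.02% ± 0.764, 2.61% ± 1.45 and 2.54% ± 1.08. The differences between sets were of the size of these spreads.

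To ask whether the offspring of transplanted males differ from control offspring, and the sets from each other, levels per gene were compared over the near-0 positions that every mouse of both sets covered. Over the 6 pairs there were 60 differences, of which 29 were higher and 31 lower in the first set, from -2.72 to 1.65 percentage points. These are not 60 separate comparisons. Igf2r and Airn, and Peg10 and Sgce, share positions and in some pairs have the same value, and each set enters several pairs. In 58 of the 60 the difference was smaller than 2 times its standard error. None of the 10 genes was without overlap between the mice in any pair, where the share of all genes without overlap was 0.793% for SSCT F1 vs control F1, 0.751% for SSCT F2/M vs control F1, 0.842% for SSCT F2/P vs control F1, 0.721% for SSCT F2/M vs SSCT F1, 0.790% for SSCT F2/P vs SSCT F1 and 0.691% for SSCT F2/P vs SSCT F2/M. A two-sided exact permutation test over the mice gave a p under 0.05 once, for Grb10 between SSCT F2/P and SSCT F1. There the means were 1.87% ± 0.944 and 0.987% ± 0.248, a difference of 0.888 points (SE 0.436), with an exact p of 0.0476 that became 1 when adjusted over all 16964 genes. The smallest p that 5 against 5 mice allow is 0.0079.

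**Figure D5:**
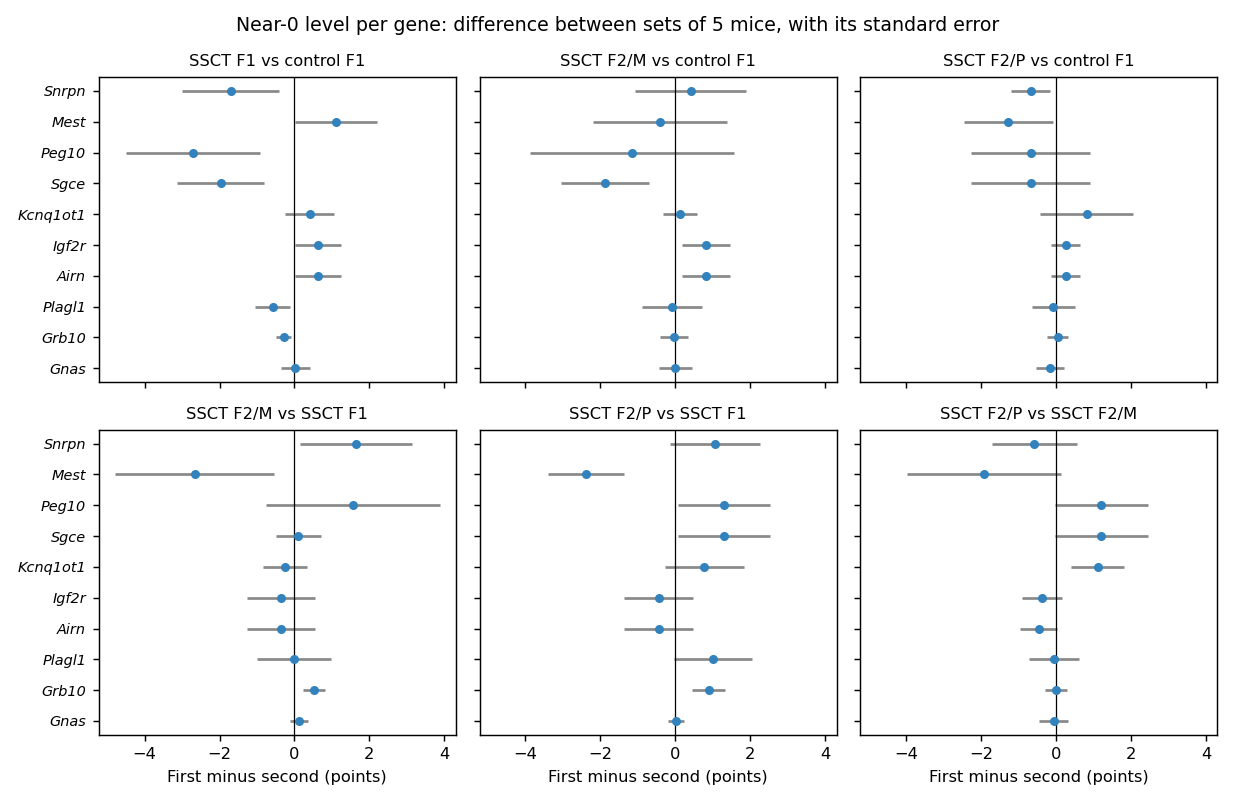
Difference in near-0 level, in percentage points, for each of the 10 genes in each of the 6 pairs of offspring sets. Points are differences of the means of 5 mice and bars are standard errors. Values run from -2.72 to 1.65, and 58 of the 60 lie within 2 standard errors of 0. Genes that share positions, and pairs that share a set, are not independent.

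The largest of these differences were at genes with few positions. At Peg10, with 10 positions, SSCT F1 read 1.12% and control F1 3.83%, a difference of -2.72 points with a standard error of 1.79 (exact permutation p = 0.167, two-sided). At Mest, with 9 positions, SSCT F2/M read 3.23% and SSCT F1 5.89%, a difference of -2.66 points (SE 2.13). At Gnas, with 150 positions, SSCT F1 and control F1 read 1.98% and 1.96%, a difference of 0.0266 points (SE 0.396). Gnas in SSCT F2/M differed from control F1 by -0.00286 points (SE 0.445), and the difference for SSCT F2/P was -0.173 points (SE 0.378), each over 188 positions. The errors were thus smaller at Gnas than at Peg10 and Mest.

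Taken over all covered near-0 positions of the 10 genes, SSCT F1 differed from control F1 by -0.110 points (SE 0.219, 366 positions), SSCT F2/M by 0.0102 (SE 0.238, 435 positions) and SSCT F2/P by -0.0895 (SE 0.232, 436 positions). The same differences over all near-0 positions of the series were 0.0192, 0.00210 and 0.00924 points. The 10 genes and the series thus both had differences well below 1 point. At methylated positions the differences of the 3 sets from control F1 were -1.05 (SE 1.38, 36 positions), 0.855 (SE 0.680, 44 positions) and -0.308 points (SE 0.636, 35 positions). At the methylated positions of Gnas, SSCT F2/M read 98.6% ± 1.33 and control F1 96.5% ± 1.45, a two-sided exact permutation p of 0.0476 that was 0.991 after adjustment over all genes. The methylated level of 4, 4, 4, 3, 5 and 5 of the 10 genes could be compared in the 6 pairs, in the order given above, and none was without overlap, where 0.723%, 0.748%, 0.693%, 0.704%, 0.695% and 0.767% of all genes were.

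Single CpGs gave no call in the offspring. A CpG was called differentially methylated (DMC), and a window of 1000 bp a DMR, when a logistic test on the reads gave a q-value under 0.01 and the read-weighted levels differed by more than 25 percentage points. For SSCT F1 vs control F1, 0 of 418 CpGs of the 10 genes and 0 of 47 windows were called, against 0.462% and 0.415% over the series. For SSCT F2/M vs control F1 the counts were 0 of 497 and 0 of 52 (0.420% and 0.363%), and for SSCT F2/P vs control F1 they were 0 of 491 and 0 of 49 (0.430% and 0.392%). Between the sets titled SSCT, 0 of 433 CpGs and 0 of 50 windows were called for SSCT F2/M vs SSCT F1 (0.439% and 0.369%). For SSCT F2/P vs SSCT F1 the counts were 0 of 417 and 0 of 50 (0.447% and 0.408%). For SSCT F2/P vs SSCT F2/M they were 0 of 507 and 0 of 53 (0.404% and 0.368%). With the SSCT F2 sets pooled against control F1, 0 of 393 and 0 of 45 were called (0.187% and 0.143%). Under the heat map's names this pooled comparison had 0 of 357 CpGs and 0 of 42 windows called (0.161% and 0.132%).

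Near-0 CpGs were classed on these same mice, which leaves little room for a difference above 25 points. Among near-0 CpGs of the whole series the share called was 0.00806%, 0.00880%, 0.00725%, 0.0110%, 0.00957% and 0.00742% in the 6 pairs and 0.00314% with the SSCT F2 sets pooled, and 0 of 349 to 447 near-0 CpGs of the 10 genes were called. In the 6 pairs the largest read-weighted difference at a CpG of the 10 genes was 18.6, 15.1, 22.8, 19.4, 19.8 and 18.7 points, and 14.2 points with the SSCT F2 sets pooled. An unadjusted p under 0.05, with no limit on the difference, was reached by the likelihood-ratio test at 135, 174, 190, 152, 164, 182 and 150 of these CpGs, and by the F test, which allows for the spread between mice, at 31, 33, 35, 32, 49, 44 and 38. For windows the likelihood-ratio test reached it at 28, 26, 29, 28, 26, 27 and 22 and the F test at 3, 5, 5, 4, 4, 2 and 4, and the F test called no CpG or window. Over the series, 48.5% to 49.1% of windows had such a p by the likelihood-ratio test. The likelihood-ratio test treats reads as independent, and 38.2% to 41.1% of all CpGs tested had such a p.

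In F0 sperm the means over all near-0 positions were low in both groups, with higher values in single SSCT F0 males at some runs. Over all near-0 positions that each library covered, the SSCT F0 males read 2.54%, 2.32% and 1.89% at 917, 639 and 97 positions, and the control F0 males read 1.66%, 2.35% and 1.85% at 807, 1001 and 937. The groups overlapped, with means of 2.25% ± 0.330 and 1.95% ± 0.360 (SD, n = 3 each). At the 43 near-0 positions that all 6 libraries covered, the difference was -0.676 points with a standard error of 1.01. Without SSCT F0 replicate 3, 461 near-0 positions were covered. There the other two males read 2.29% and 2.30% and the controls 1.57% to 1.98%, a difference of 0.541 points without overlap, where over all near-0 positions of the series the difference was 0.226 points. Of the 461 positions, however, 80 were higher and 126 lower in SSCT F0, and the median difference was 0.

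By gene, the values over the positions that each library covered went both ways. At Snrpn replicates 1 and 2 read 6.94% and 0, and the control F0 males 0, 1.89% and 0.449%. At Mest the SSCT F0 males read 0.418%, 0 and 0 against 2.64%, 1.16% and 1.28%, and at Peg10 0.411%, 0 and 0 against 2.33%, 1.89% and 1.85%. At these last 2 genes the SSCT F0 males were the lower ones, but replicate 3 rested on 6 and 1 positions. At Igf2r the SSCT F0 values were 3.71%, 7.10% and, at 1 position, 0.533%, against 1.93%, 1.64% and 2.23%. Kcnq1ot1 read 3.61% and 2.63% against 1.01%, 2.50% and 2.32%. At Igf2r and Kcnq1ot1 replicates 1 and 2 were thus above all 3 control males, with 9 positions for Kcnq1ot1 in replicate 2. Over the positions that all libraries but replicate 3 covered, none of Igf2r, Kcnq1ot1, Mest and Peg10 was without overlap. Of all genes 23.3% were. Plagl1, at 4.05%, 2.24% and 0.0161% against 1.99%, 2.07% and 5.01%, and Gnas, at 2.35%, 2.37% and 1.57% against 1.23%, 3.01% and 1.61%, overlapped. At Grb10 replicates 1 and 2 read 2.08% and 1.50%, within the control values of 2.27%, 1.53% and 1.49%, while replicate 3 read 14.8% at 5 positions. In the run across the Igf2r start, where replicate 3 had no position, replicates 1 and 2 read 3.81% and 11.5%, the latter with 7 of 29 positions above 25%, and the control F0 males read 0.958%, 1.51% and 2.94%.

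Over positions that all libraries covered, 2 of the genes, Gnas and Grb10, could be compared with all 6 F0 libraries, and neither was without overlap (11.8% of all genes were). Without replicate 3, 9 of the 10 genes could be compared, 6 higher and 3 lower in SSCT F0, by -1.94 to 4.51 points, and again none was without overlap (23.3% of all genes). The smallest exact permutation p that these designs allow is 0.1, so that no gene could pass the threshold.

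Among the 45 CpGs of the imprinted genes that all 6 F0 libraries covered, 2 were DMCs, against 5.83% of all CpGs and 2.31% of near-0 CpGs, and 0 of 12 windows were DMRs, against 10.0%. By the F test 0 CpGs and 0 windows were called. Unadjusted p-values under 0.05 came at 14 CpGs by the likelihood-ratio test and 8 by the F test, and at 7 and 4 windows. By the likelihood-ratio test 37.9% of all CpGs and 74.3% of all windows had such a p. The first DMC, chr11:12038757, lies upstream of the distal Grb10 start, and the SSCT F0 males read 0, 0 and 73.6% there and the control males 0, 19% and 48.3%. This difference of 44.1 points (q = 2.32e-13) rested on replicate 3, and the groups overlapped. The second, chr17:12751326, lies in the bodies of Igf2r and Airn and read 0 in all 3 SSCT F0 males against 51.6%, 27.5% and 20.6%, a difference of -30.6 points (q = 5.20e-42). It was intermediate in the offspring, at 17.4%. The other strand of the same CpG, chr17:12751325, was a DMC in the opposite direction without replicate 3. There SSCT F0 replicates 1 and 2 read 6.9% and 92.9% against 0, 10.4% and 0, a difference of 60.8 points. Of the 45 CpGs, 3 were without overlap, against 3.10% of all.

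Without replicate 3, 490 CpGs were covered and 21 were DMCs, 17 higher and 4 lower in SSCT F0, against 5.83% of all CpGs. Gnas had 9 of them, the stretch shared by Igf2r and Airn 8, Grb10 2 and Peg10 2. Of the 461 near-0 CpGs, 16 were called, against 2.06% of all near-0 CpGs, and 15 of the 16 were higher in SSCT F0. Over the series 9144 near-0 calls were higher and 495 lower, and a level near 0 in the offspring leaves little room to be lower. At most of these a single male carried the difference. At chr17:12769804, chr17:12769808, chr17:12769810, chr17:12769812, chr17:12769814 and chr17:12769831, all just upstream of the Igf2r start, replicate 2 read 47.4% and the other 4 males 0, and such close positions share reads. At chr11:12026330, in the run of Grb10 that the oocyte methylates, replicate 2 read 96.9% and the others 0. At chr11:12038625, by the distal Grb10 start, both SSCT F0 males were high, with 74.1% and 37.2% against 0 in all 3 controls (difference of 45.5 points, q = 1.91e-22). Of the 490 CpGs, 8 were without overlap, against 5.04% of all.

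At Peg10 the DMCs lay in and after the transition. At chr6:4755844 the SSCT F0 males read 72.5% and 0 against 75.0%, 94.4% and 73.9%. At chr6:4756163, a CpG whose other strand was methylated in the offspring, they read 63.5% and 100% against 28.0%, 38.6% and 17.8%. The window chr6:4756001-4757000, with 5 positions, was a DMR at 88.8% and 100% against 64.6%, 66.5% and 74.4%, a read-weighted difference of 25.4 points. The other DMR of 43 windows, against 10.1% of all windows, was chr2:174316001-174317000 in Gnas, which held a single methylated CpG that read 100% and 0 against 100%, 100% and 97.9%. The F test called 0 of these CpGs and windows, with an unadjusted p under 0.05 at 14 CpGs and 1 window against 127 and 26 by the likelihood-ratio test. The latter gave such a p at 31.7% of all CpGs and 60.8% of all windows.

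Values of 90% or more at near-0 positions were rare in every group. In the 20 offspring there were 8 among 18130 values, each 100% on 10 to 15 reads and each at another position. No control F0 male had one. SSCT F0 replicate 2 had 5 among 639 and replicate 3 had 1 among 97, the latter at Gnas with 569 reads. Over all near-0 positions of the series the share of such values was 0.0949%, 0.922% and 1.71% in the SSCT F0 libraries and 0.0305% to 0.0654% in the control F0 libraries.

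The methylated positions of the 10 genes read 97.0%, 96.1% and 97.0% in the control F0 males. In SSCT F0, replicate 1 read 95.0% at 98 positions, replicate 2 read 85.0% at 20 and replicate 3 read 100% at its only one. Over the series these libraries read 95.0%, 88.6% and 58.8%, against 95.9% to 96.7% in control F0. At Sgce replicates 1 and 2 read 82.7% and 34.0% at 5 and 3 positions against 99.7%, 93.1% and 95.8%, and at Gnas replicate 2 read 66.7% at 3 positions. The relation of the low values, over the series and at these genes, to the small DNA input was not tested.

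Other imprinted genes were read for comparison. At 11 further genes with a maternally methylated region, near-0 positions read 2.06% ± 0.174 in the control F1 mice, and 2.16% ± 0.575, 2.42% ± 0.292 and 2.20% ± 0.336 in the SSCT F1, F2/M and F2/P mice. In F0 sperm they read 3.43% to 3.92% in SSCT F0 and 2.05% to 2.86% in control F0. Single genes differed more. The highest SSCT F0 male read 49.9% at Peg3, 39.9% at Usp29 and 21.5% at Nap1l5, against at most 8.85%, 6.46% and 2.98% in control F0. The SSCT F0 mean was also higher at Zrsr1 and Mcts2. It was lower at Nnat, Inpp5f, H13, Slc38a4, Trappc9 and Cdh15. At 5 genes with a region that is methylated in sperm by background knowledge, H19 among them, methylated positions read 93.7% to 98.8% in the offspring and 95.1% to 98.3% in control F0. In SSCT F0 the first and second replicates read 98.0% and 73.9%, at 39 and 8 of these positions. For both lists the offspring levels follow from the classing, so they do not show whether the regions themselves were methylated. Near-0 positions outnumbered methylated ones at most of the 11 further genes, such as Zrsr1 (90 and 1) and Inpp5f (72 and 13). They did not at Slc38a4 (10 and 59), Trappc9 (95 and 245) and Cdh15 (26 and 29). In the list of 5 genes they did so at Meg3 (37 and 18), Dlk1 (75 and 3), Rasgrf1 (81 and 35) and Zdbf2 (177 and 4). At H19 they did not (8 and 13). The near-0 positions of these 5 genes read 1.60% ± 0.246 in control F1. They read 1.55% ± 0.302, 1.71% ± 0.454 and 1.85% ± 0.620 in SSCT F1, F2/M and F2/P.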

How the data were processed

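Sperm RRBS libraries of 26 mice were analysed. For each strand of a covered CpG, the authors deposited a count of reads and, as a fraction between 0 and 1, how many kept the cytosine. Per the labels' processing notes the tools were FastQC, Trim Galore 0.4.1, Bismark 0.20.0 and methylKit 1.7.0, with GRCm38 and mm10 as builds. Fraction times count gave the methylated reads. Summed over CpG positions, libraries of the offspring and control F0 held 45616751 to 87707577 reads.

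The genes, lists and tests were chosen with earlier results of these data known. The runs of near-0 positions, joined over gaps of up to 1000 bp, were drawn after the values were seen. CpGs and 1000-bp windows of the whole genome entered a comparison with 10 or more reads per library, leaving out coverage beyond the 99.9th percentile. The logistic likelihood-ratio test had no overdispersion term. Its p-values were adjusted by Benjamini-Hochberg. An F test scaled by the Pearson statistic was an alternative. Levels per gene are unweighted means over at least 5 positions, tested by two-sided exact permutation with adjustment over all genes. All 10 genes are named, and of the F0 DMCs without replicate 3 the 3 with the largest difference among those without overlap; CpGs named beside these were chosen after their values were seen. Per the study's methods, the offspring of a set were drawn at random, avoiding brothers or sisters. The F1 offspring came from 3 control and 3 transplanted males, so the 5 mice of an F1 set cannot all have different fathers. The tests treat the mice as independent. Over 325 pairs of libraries, at most 3.09% of positions had equal coverage, and none was counted as a duplicate. Coverage minimums, thresholds, strand merging, the replicate block, the names of the sets and left-out libraries were varied. Python 3.11.15, NumPy 2.4.6 and SciPy 1.17.1 were used, and the scripts were tested on simulated data.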

Additional observations from a re-analysis of the deposited data

Results flagged for a closer look

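Of 78 groups of 5 offspring mice, 8 had a mouse whose gap to the nearest other mouse exceeded Dixon's critical value, where chance gives about 1 in 20. At near-0 positions, Peg10 read 8.34% in SSCT F2/M replicate 4 while the other 4 mice lay between 0.132% and 2.08%. In that mouse 2 positions of the run chr6:4755338-4755407 read 56.5%, and the 18 positions of the run at the Peg10 start read 2.99%. Sgce, which shares all 18 of its near-0 positions with Peg10, read 3.79% in SSCT F2/P replicate 2, and the other mice were between 0 and 0.897%. Over all 10 genes, SSCT F2/M replicate 3 read 2.33% against 1.52% to 1.69%.

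At methylated positions, Kcnq1ot1 read 89.6% in SSCT F2/M replicate 5, where the other mice had 96.9% to 99.7%. Igf2r stood at 95.6% in SSCT F2/P replicate 2 against 98.7% to 99.4%. Airn was at 88.0% in SSCT F1 replicate 5 against 99.2% to 100%, and at 88.7% in control F1 replicate 1 against 96.9% to 100%. Over all 10 genes SSCT F2/P replicate 1 was the higher one, with 97.7% against 95.8% to 96.3%.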

How the results depend on the processing

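In F0 sperm the 2 DMCs became 1 with at least 20 reads and 1 with the replicate block, in each case the CpG at chr17:12751326, and 0 with the F test. Leaving out each library gave 2 to 21 DMCs and 0 to 2 DMRs, with 21 and 2 without SSCT F0 replicate 3, and a DMR at Grb10 without control F0 replicate 3. The near-0 difference there was -2.60 points with at least 5 reads and ran from -3.67 to 0.541 as libraries were left out, with 0.541 without SSCT F0 replicate 3 and -3.67 without control F0 replicate 1. No methylated position was covered in all 6 libraries, and over each library's own positions the methylated difference was -3.39 points, with a single position in SSCT F0 replicate 3. Without that replicate it was -1.11 points over the 13 positions that the other libraries covered.

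With a difference above 10 points in place of 25, DMCs numbered 20 for SSCT F1, 15 for SSCT F2/M, 15 for SSCT F2/P and 6 for both F2 sets together, each against control F1, of 418, 497, 491 and 393 CpGs, where 5.23%, 5.01%, 5.06% and 3.66% of all CpGs were called. With at least 5 reads, SSCT F2/M had 2 DMCs, and SSCT F2/P had 1 DMC and 1 DMR, both at Snrpn. Leaving out 1 mouse gave 0 to 1 DMCs for SSCT F1, 0 to 1 for SSCT F2/M, 0 to 2 for SSCT F2/P and 0 with the F2 sets pooled, and 0 DMRs in each. The calls gained were at Gnas (SSCT F1 without SSCT F1 replicate 2, and SSCT F2/P without SSCT F2/P replicate 1), Igf2r (without F2/M replicate 2, F2/P replicate 2, or, for SSCT F2/P, control F1 replicate 1 or 4) and Peg10 (without F2/M replicate 3 or F2/P replicate 3).

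The near-0 differences from control F1 ran from -0.230 to -0.00837 points for SSCT F1, -0.137 to 0.172 for SSCT F2/M and -0.218 to 0.111 for SSCT F2/P as mice were left out. The methylated differences ran from -1.57 to 0.454, 0.468 to 1.50 and -0.724 to 0.798, the last without SSCT F2/P replicate 2. For SSCT F2/M the methylated difference was -0.312 when weighted by reads, and for SSCT F2/P it was -2.0 with at least 20 reads. With the names of the heat map the F2/M difference was -0.855, which is the main value of 0.855 with the same sets swapped. With F2/M and F2/P also exchanged it was -1.03, the set titled SSCT F1 minus the set titled SSCT F2/M. These signs follow from the names. Per gene, the number without overlap ranged from 0 to 1: Gnas near 0 in F0 without SSCT F0 replicate 1, Mest near 0 for SSCT F1 without control F1 replicate 5, and Sgce methylated for SSCT F1 without SSCT F1 replicate 4. The causes were not tested.

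Libraries with the same replicate number did not deviate together, with correlations of -0.0106 to 0.0109, so that the numbers do not pair the mice, and with the replicate block the offspring had 0 DMCs and 0 DMRs. SSCT F0 replicate 3 had at least 10 reads at 136 of the 1717 positions, and 45 were shared by all 6 F0 libraries. In the offspring 482 of the 1717 were measured in too few mice to be classed.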
